A study of Mus musculus with 2 samples.

Results

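Potassium channel genes were followed in single-nucleus RNA sequencing of the mouse hypothalamus. The members were the genes whose symbol is Kcn followed by a family letter code and a number, and that had at least 20 matrix columns, each a nucleus barcode, with a read molecule. Of the 32285 genes in the matrix, 92 had such a symbol and 76 were detected in enough columns to be members. Nuclei came from wild-type male C57BL/6J mice 10 to 12 weeks old, and the sample labels give the arcuate nucleus (ARC) as their only tissue. They were selected by NeuN, which marks the nuclei of neurons, and were sequenced as 1 pooled library without a treatment or a second genotype. A library of hashtags, barcoded antibodies that mark nuclei before pooling, split the nuclei into preparations that the deposited feature list names ARC and PVH. The labels do not mention PVH, so the origin of those nuclei rests on the hashtag name and the marker genes given after the background. After the filters of the study, 3767 nuclei carried the ARC hashtag and 3074 the PVH hashtag, with medians of 4827 and 5039 unique molecular identifiers (UMIs, each 1 captured RNA molecule) per nucleus and totals of 19492658 and 16732895 UMIs. Because mice were pooled into 1 library there were no replicates, so no test was made. A level summed over a group does not tell apart more nuclei with a gene from more RNA of it per nucleus. Levels are counts per 1000000 (CPM) of UMIs summed over a group, and the 95% intervals of levels and ratios cover counting error only.

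Potassium channels let potassium leave or enter a cell and so set its resting potential, the shape of its spikes and how soon it can fire again. Voltage-gated channels open on depolarization, calcium-activated and sodium-activated channels open when those ions rise, inward rectifiers (Kir) pass current near rest and include the targets of G-protein-coupled receptors, and the K2P channels carry leak current. In hypothalamic feeding neurons, hormones and transmitters such as leptin, GABA and opioids act in part by opening or closing these channels. Auxiliary subunits such as the KChIP proteins (Kcnip genes) and the BK beta subunits (Kcnmb genes) change the gating and trafficking of the pore-forming subunits.

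The hashtag and class labels were checked against marker genes. Sim1, a transcription factor of the paraventricular hypothalamus, was at 10.6 CPM in ARC nuclei and 109 CPM in PVH nuclei, although the PVH nuclei also held a cluster with markers of the ventromedial hypothalamus (VMH) and another with dopaminergic markers. Genes of arcuate neurons separated the hashtags less, with Agrp at 174 and 152 CPM and Pomc at 164 and 90.3 CPM. Clusters were rebuilt within each hashtag with the 76 members left out of the genes used, and a cluster was named only from its markers. In ARC nuclei this gave 682 AGRP-like, 316 SST-like, 287 POMC-like, 212 KNDy-like (neurons with kisspeptin, neurokinin B and dynorphin), 204 GHRH-like, 193 VMH-like and 317 dopaminergic-like nuclei, 30 non-neuronal nuclei, and unnamed clusters. In PVH nuclei there were 923 Sim1-like, 461 VMH-like and 171 dopaminergic-like nuclei. Oxt, the oxytocin gene of the paraventricular hypothalamus, stood at 565 CPM in ARC nuclei and 616 CPM in PVH nuclei. An unnamed cluster in each hashtag (541 ARC and 440 PVH nuclei) passed the list of oligodendrocyte markers, whose 5 genes summed to 375 and 479 CPM there against 96.0 and 87.6 CPM in the other neurons. The ARC one (cluster 2) also passed the Sim1 markers. The part of free or glial RNA in the levels below was not tested.

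The members held 1.19% of all UMIs of the hashtagged nuclei, or 432356 UMIs. Their summed level was close to the same in both hashtags, at 11918 CPM in ARC and 11955 CPM in PVH nuclei. A few genes carried most of it. Kcnip4, the KChIP4 subunit of Kv4 channels, held 36.0% of the members' UMIs and was seen in 10021 of 11409 columns, and the leading 5 genes (Kcnip4, Kcnd2, Kcnb2, Kcnip1 and Kcnma1) held 64.3%. At the other end, Kcnj14 and Kcnh3 lay just inside the limit with 20 and 23 columns, and Kcnmb3 lay just outside it with 19. Of the 16 genes under the limit, Kcne4, Kcna7, Kcne3 and Kcnj1 had no UMI in any column.

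Levels followed gene length. The sources used here do not say whether UMIs in introns were counted. Over the 76 members the Spearman correlation of CPM with the length of the gene was 0.815, and it was 0.416 over 18997 genes, a description across genes that share the same nuclei. Per 100 kb of gene length the order changed. Kcnip4 had 378 CPM per 100 kb and Kcnd2 296, and they were then followed by Kcna4 with 266 and Kcnc1 with 254, both lower than Kcnb2 and Kcnma1 in total CPM. The annotation placed other gene models over 39 members, 17 of them on the same strand, so that UMIs of these genes could include those of a neighbour. For Kcnip4, which spans 1135 kb, 24 models lay on its own strand.

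**Figure D1:**
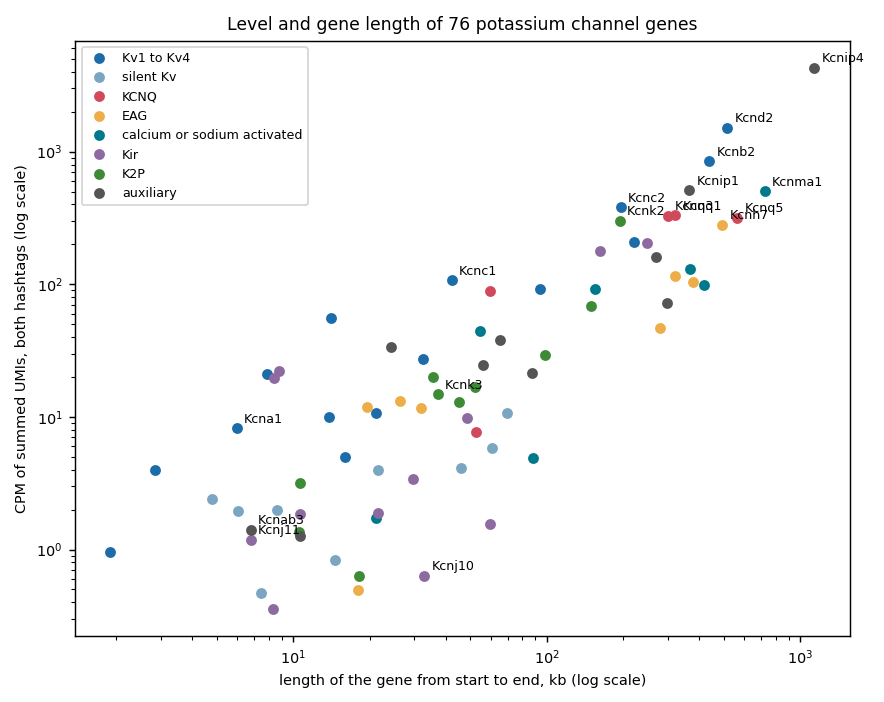
Level of each of the 76 potassium channel genes (CPM of summed UMIs over both hashtags, log scale) against the length of the gene in kb (log scale), with 1 point per gene coloured by family. Long genes such as Kcnip4 (1135 kb) stand at the top right and short ones such as Kcnj11 near 1 CPM, and the Spearman correlation is 0.815.

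Among pore-forming voltage-gated genes, 15 of 17 Kv1 to Kv4 genes were members and together stood at 3429 CPM in ARC and 3148 CPM in PVH nuclei. Kcnd2, which encodes the Kv4.2 channel of the fast A-type current, was at 1565 and 1467 CPM, and Kcnb2, a delayed rectifier, at 927 and 752 CPM. Kcnd3 (226 and 189 CPM), Kcnc2 (367 and 402 CPM) and Kcnc1 (110 and 103 CPM) had lower levels. The Kv1 genes of axons were low, with Kcna2 at 9.64 and 10.3 CPM and Kcna1 at 5.39 and 11.5 CPM. All 5 Kcnq genes, which encode the M-current channels and their relatives, were members and summed to 1040 and 1116 CPM. The 9 silent subunit genes among 10 (Kcnf, Kcng, Kcns and Kcnv), which work only with Kv2 partners, summed to 28.1 and 37.1 CPM.

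The 8 Kcnh (EAG) genes summed to 545 CPM in ARC and 632 CPM in PVH nuclei, led by Kcnh7, a slowly gated channel of the ERG group, at 250 and 316 CPM. The genes grouped by symbol as calcium-activated or sodium-activated (Kcnma, Kcnn, Kcnt and Kcnu, 7 members of 8) summed to 863 and 892 CPM. They were led by Kcnma1, the BK channel, at 538 and 464 CPM. The SK channel genes Kcnn3 and Kcnn2 stood at 97.4 and 85.8 CPM and at 69.7 and 132 CPM, and the sodium-activated genes Kcnt2 and Kcnt1 at 111 and 155 CPM and at 41.3 and 48.2 CPM. The 10 K2P members of 14 summed to 571 CPM in ARC and 351 CPM in PVH nuclei. Most of this was Kcnk2, the TREK1 leak channel, at 385 and 206 CPM.

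The Kir genes (12 members of 15) summed to 477 and 408 CPM, nearly all of it from subunits of the G-protein-gated GIRK channel. Kcnj6 stood at 219 and 185 CPM, Kcnj3 at 198 and 158 CPM, Kcnj9 at 22.7 and 21.8 CPM, and Kcnj5 at 3.54 and 3.29 CPM. Kcnj11, the Kir6.2 pore of the ATP-sensitive channel that couples metabolism to firing, was seen in 72 columns and stood at 1.18 CPM in ARC (95% interval 0.75 to 1.77) and 1.195 CPM in PVH nuclei. Its count was too low for any comparison, and the highest of the 13 ARC neuron clusters held 3.95 CPM. Kcnj8, the other ATP-sensitive pore, was seen in 4 columns and was no member. The sulfonylurea receptor subunits that pair with these pores were measured too, Abcc8 at 29.2 and 31.2 CPM and Abcc9 at 2.51 and 3.88 CPM. Kcnj11 spans 6.81 kb, so at this depth its levels cannot order the classes.

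The question of the hashtag comparison was which members differed between ARC-side and PVH-side nuclei. A member could be called when at least 20 UMIs were expected in the smaller group, and was called when the levels differed by over 1.5-fold. Of 68 members that could be called, 6 were higher in ARC nuclei (8.82%) and 10 were higher in PVH nuclei (14.7%), against 5.44% and 5.82% of all 16178 genes that could be called. The remaining 52 lay within 1.5-fold. By family, 3 of 9 K2P genes were higher in ARC nuclei and 1 was higher in PVH nuclei. Of 7 Kcnh genes, 2 were higher in ARC and 1 in PVH nuclei. Of 7 silent subunit genes, 3 were higher in PVH nuclei, and none of the 5 Kcnq genes was called.

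Kcnk13, a THIK1 leak channel, was 2.38-fold higher in ARC nuclei (95% interval 2.07 to 2.74), at 39.7 against 16.7 CPM. Kcnh8, an ELK channel, was 2.01-fold higher (1.88 to 2.16), Kcnk2 was 1.87-fold higher (1.80 to 1.95) and Kcnk12, the THIK2 gene, 1.71-fold higher (1.44 to 2.03). Kcnh4 (1.6-fold) and Kcnab1 (1.53-fold, a beta subunit of Kv1 channels) were the other 2. On the PVH side the better counted genes were Kcnh1, the EAG1 channel, at 165 against 75.1 CPM (2.19-fold higher) and Kcnn2, an SK channel, at 132 against 69.7 CPM (1.89-fold higher). Kcnmb4, the neuronal BK beta subunit, was at 31.3 against 19.0 CPM, Kcnj12 (Kir2.2) at 15.1 against 5.28 CPM and Kcna1 at 11.5 against 5.39 CPM. Kcnk4, Kcnn1, Kcns3, Kcng3 and Kcns2 were also higher in PVH nuclei but lay under 9 CPM in both groups, and the interval of the Kcns2 ratio (0.40 to 1.09) reached 1.

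**Figure D2:**
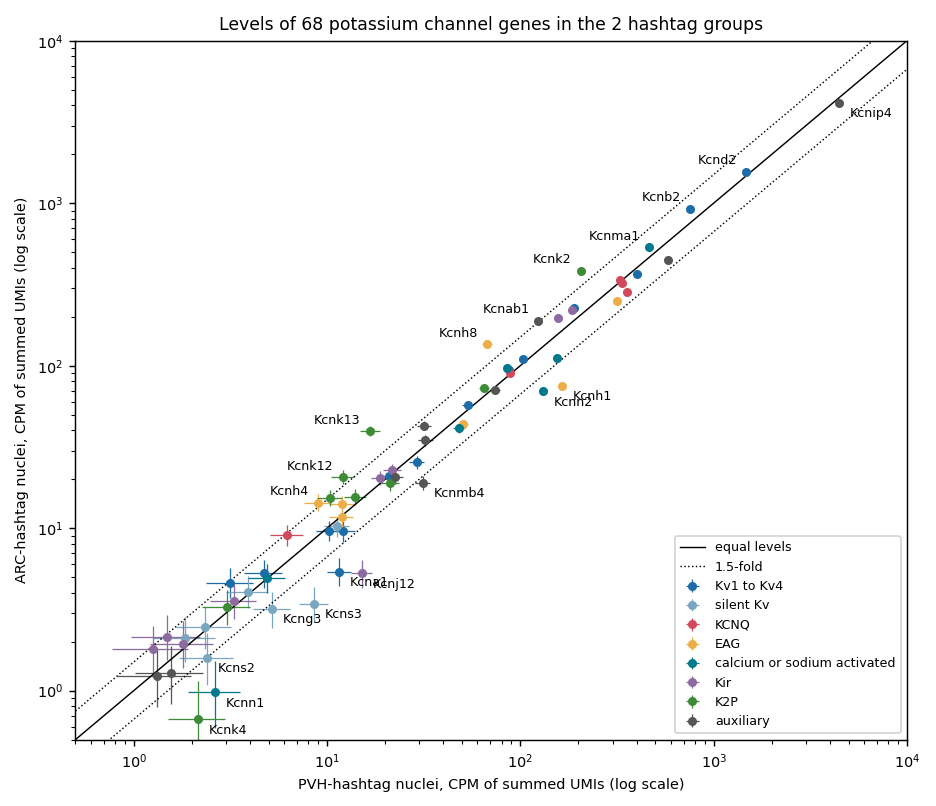
Levels of the 68 potassium channel genes that could be compared, in PVH-hashtag nuclei (horizontal) and ARC-hashtag nuclei (vertical), both as CPM of summed UMIs on log scales, with 95% counting intervals and points coloured by family. Most points lie between the dotted lines of 1.5-fold, while Kcnk13, Kcnh8 and Kcnk2 lie above them and Kcnh1, Kcnn2 and Kcnj12 below.

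The hashtag groups differ in which neurons they hold, so the comparison was repeated within kinds of neuron. Clusters were called Slc32a1-rich (GABA neurons) or Slc17a6-rich (glutamate neurons) when the level of that transporter was at least 2 times that of the other. In Slc17a6-rich clusters, 7 of 54 members were higher in ARC and 7 in PVH nuclei, against 5.86% and 6.57% of all genes. In Slc32a1-rich clusters, 8 of 55 members were higher in ARC and 10 in PVH nuclei, against 7.7% and 6.01% of all genes. Kcnk13, Kcnk2, Kcnh8 and Kcnh4 were higher on the ARC side in both kinds of neuron, and Kcnh1 and Kcnj12 were higher on the PVH side in both. The sizes differed. Kcnk13 was 4.74-fold higher in ARC among Slc17a6-rich clusters (83.3 against 17.6 CPM) and 1.83-fold higher among Slc32a1-rich ones (25.2 against 13.8 CPM). The Slc17a6-rich groups still differed in the classes they held. On the ARC side they included the POMC-like cluster and the KNDy-like cluster, where Kcnk13 was at 152 CPM, and no PVH cluster took either name. Kcnn2 was 3.37-fold higher in PVH among Slc32a1-rich clusters (195 against 57.9 CPM) and was not called among Slc17a6-rich ones.

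Both hashtags held a VMH-like cluster. Nr5a1, the first marker of that list, passed in each but stood at only 0.87 CPM over all ARC and 0.48 CPM over all PVH nuclei. The leading genes of the ARC cluster held the VMH-list gene Gpr149, while those of the PVH cluster held none, and Bdnf passed only in the ARC cluster. Whether the clusters hold the same kind of neuron was not tested. Between these clusters, 4 of 38 members were higher in ARC and 3 in PVH nuclei, against 4.32% and 7.24% of all genes. Kcnq3 was at 983 CPM in the ARC cluster and 433 CPM in the PVH cluster, Kcnb2 at 1619 and 832 CPM, and Kcnmb4 at 53.1 and 19.3 CPM. Kcnq5 ran the other way, at 393 and 770 CPM, as did Kcnt2 at 52.2 and 152 CPM and Kcnmb2, a BK beta subunit, at 49.4 and 75.5 CPM. Kcnj13 was 1.74-fold higher in ARC. None of the 4 K2P genes that could be called here passed 1.5-fold. Within these clusters several hashtag differences did not hold: the log2 ratio of ARC over PVH turned to 1.46 for Kcnmb4, 1.19 for Kcna1, 1.15 for Kcns3 and 1.27 for Kcns2, and to -0.24 for Kcnh4 and -0.30 for Kcnh8. Except for Kcnmb4 these had too few UMIs here to be called, or lay within 1.5-fold.

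Members spread widely over the clusters. With 20 UMIs or more expected in the smallest neuron cluster, 31 members could be followed over the 13 ARC neuron clusters. The highest cluster exceeded the lowest by a median of 6.54-fold, against 1.75-fold over 6747 genes of any kind, and 23 of the 31 spread over 3-fold or more, against 16.3% of those genes. Over the 14 PVH clusters 28 members had a median of 4.35-fold, against 1.85-fold over 5726 genes, and 18 of the 28 spread 3-fold or more, against 18.5% of those genes. The widest in ARC nuclei was Kcnt2 (17.3-fold) and the widest in PVH nuclei was Kcnh5 (46.4-fold, from 2.48 to 115 CPM). Some members were nearly flat. In ARC clusters Kcnq1 ranged from 287 to 372 CPM, Kcnc1 from 92.0 to 144 CPM and Kcnma1 from 403 to 668 CPM.

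**Figure D3:**
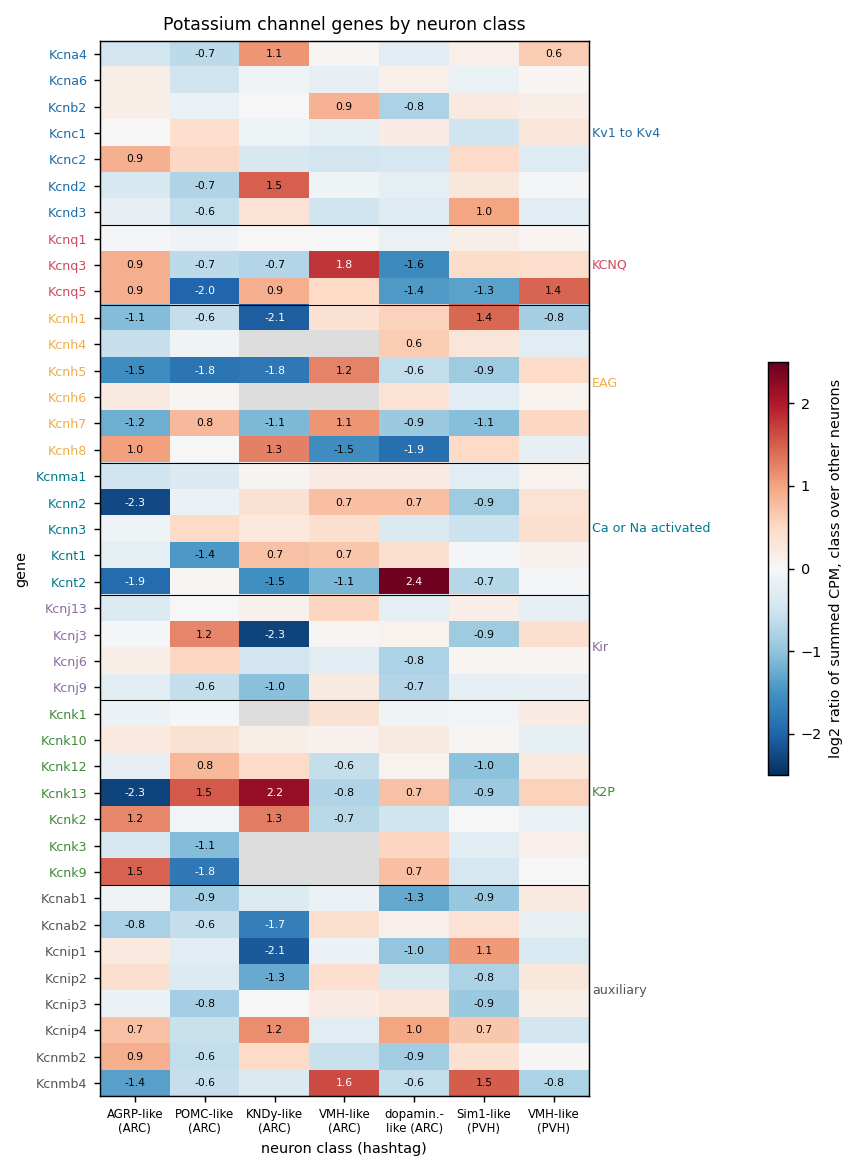
Log2 ratio of the level in each named class to the level in the other neurons of the same hashtag, for 40 potassium channel genes with a ratio in at least 4 of the first 6 classes, grouped by family. Red is higher and blue lower in the class, a number is printed where the difference passed 1.5-fold, and grey marks a gene with too few UMIs. Kcnk13 is lowest in AGRP-like and highest in KNDy-like nuclei, and Kcnq1 and Kcnma1 stay pale throughout.

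AGRP-like neurons, which drive feeding and release AgRP, NPY and GABA, had more RNA of the leak channels Kcnk2 and Kcnk9 and of the M-channel genes Kcnq3 and Kcnq5 than the other ARC neurons, and less of the SK gene Kcnn2 and the sodium-activated Kcnt2. Of 48 members, 8 were higher (16.7%) and 9 lower (18.8%), against 4.74% and 8.61% of all 12298 genes. The higher members were Kcnk9 (TASK3, 32.0 against 11.5 CPM, 2.78-fold), Kcnk2 (713 against 309 CPM, 2.31-fold), Kcnh8 (2.02-fold), Kcnmb2 (1.88-fold), Kcnq5 (456 against 243 CPM), Kcnq3 (516 against 277 CPM), Kcnc2 (1.85-fold) and Kcnip4 (6116 against 3693 CPM). The lower members included Kcnk13 at 9.49 against 47.0 CPM (ratio 0.20, 95% interval 0.14 to 0.28), Kcnn2 at 17.1 against 81.5 CPM (0.21, 0.16 to 0.27) and Kcnt2 at 34.2 against 130 CPM (0.26, 0.22 to 0.32). Kcnh5, Kcnmb4, Kcnh7, Kcnh1, Kcnab2 and Kcng2 were lower by 1.64-fold to 2.92-fold. Kcnk13 and Kcnn2 were lower here than in any other ARC neuron cluster.

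POMC-like neurons, which release melanocortin peptides and restrain feeding, had more of the GIRK subunit Kcnj3 than any other cluster. It stood at 412 CPM against 178 CPM in the other ARC neurons (2.31-fold, 2.13 to 2.51). Of 43 members, 4 were higher (9.30%) and 16 lower (37.2%), against 3.67% and 7.87% of all 10071 genes. The others that were higher were Kcnk13 (99.6 against 34.2 CPM, 2.91-fold), Kcnk12 (1.78-fold) and Kcnh7 (411 against 235 CPM). Kcnq5 was at 76.3 against 303 CPM (ratio 0.25, 0.21 to 0.30), Kcnh5 at 13.1 against 46.5 CPM, Kcnk9 at 4.77 against 16.4 CPM, Kcnt1 at 16.1 against 43.8 CPM and Kcnk3 at 7.75 against 16.4 CPM. Kcnd2 (966 against 1624 CPM), Kcnd3, Kcnip3 and Kcnab1, which encode channels and subunits of inactivating currents, were lower by 1.53-fold to 1.82-fold, as was Kcnq3 by 1.58-fold. Kcna4, Kcnmb2, Kcnh1, Kcnj9, Kcnab2 and Kcnmb4 lay between 1.5-fold and 1.58-fold lower, and the intervals of Kcnab2 and Kcnmb4 reached 1. The log2 ratio of Kcnab2 was 0.11 when each nucleus was thinned to 1000 UMIs.

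KNDy-like neurons, which pace the release of gonadotropin-releasing hormone, had a higher summed member level, at 19120 CPM against 11539 CPM in the other ARC neurons. Most of that difference came from Kcnip4 and Kcnd2. The median log2 ratio of the members that could be called was 0.04, against -0.02 over all genes. Of 38 members, 9 were higher (23.7%) and 10 lower (26.3%), against 5.21% and 10.7% of all 8447 genes. Kcnd2 stood at 4018 against 1426 CPM (2.82-fold, 2.73 to 2.91) and its partner subunit Kcnip4 at 8697 against 3891 CPM (2.23-fold). Kcnip1, a KChIP subunit of the same channel complex, was at 110 against 468 CPM (ratio 0.23, 0.19 to 0.28). Kcnk13 stood at 152 against 33.4 CPM (4.55-fold, 3.80 to 5.43) and Kcnk2 at 864 against 358 CPM (2.41-fold), while Kcnh8, Kcna4, Kcnq5 and Kcnt1 were higher by 1.66-fold to 2.39-fold. Kcnj3 was at 41.6 against 207 CPM (ratio 0.20, 0.15 to 0.27), the lowest of the ARC neuron clusters. Kcnh1, Kcnh5, Kcnab2, Kcnt2, Kcnip2, Kcnh7, Kcnj9 and Kcnq3 were lower by 1.67-fold to 4.15-fold. With the stricter hashtag quantile of 0.99, the log2 ratio of Kcnj9 was 0.08.

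Kcnd2 and Kcnk13 were high in the same KNDy-like cluster and Kcnt2 was highest in the dopaminergic-like cells described next, so the starts of these 3 genes are shown. Each window runs from 250 bases before to 50 after the RefSeq start, on GRCm38.p6 and 5′ to 3′, with CG pairs in capitals because mammalian promoters fall into CG-rich and CG-poor kinds. The windows lie at chr6:21215096-21215395 on the plus strand for Kcnd2, chr12:99964249-99964548 on the plus strand for Kcnk13 and chr1:140245468-140245767 on the plus strand for Kcnt2.
Kcnd2: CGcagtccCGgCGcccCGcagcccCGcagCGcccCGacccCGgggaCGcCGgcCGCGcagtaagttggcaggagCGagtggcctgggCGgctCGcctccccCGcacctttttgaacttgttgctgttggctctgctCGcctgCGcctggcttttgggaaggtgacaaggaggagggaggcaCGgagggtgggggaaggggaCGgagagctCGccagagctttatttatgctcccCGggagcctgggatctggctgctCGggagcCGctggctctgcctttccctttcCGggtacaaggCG
Kcnk13: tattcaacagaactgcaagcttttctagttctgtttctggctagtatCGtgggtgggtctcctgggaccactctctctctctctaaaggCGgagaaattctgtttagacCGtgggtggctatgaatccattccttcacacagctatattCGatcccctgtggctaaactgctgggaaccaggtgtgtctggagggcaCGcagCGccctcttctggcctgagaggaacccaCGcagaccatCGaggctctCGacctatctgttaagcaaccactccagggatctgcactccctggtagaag
Kcnt2: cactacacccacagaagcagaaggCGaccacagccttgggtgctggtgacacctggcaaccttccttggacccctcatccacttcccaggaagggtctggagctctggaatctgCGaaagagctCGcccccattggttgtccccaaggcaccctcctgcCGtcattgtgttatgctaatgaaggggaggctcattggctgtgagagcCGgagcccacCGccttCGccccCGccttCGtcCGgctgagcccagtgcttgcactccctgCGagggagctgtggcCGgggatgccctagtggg
They hold 26, 9 and 12 CG pairs, against a median of 7 over all 32851 windows and of 10 over the 75 windows that matched 52 members. On both strands, none of the 3 holds the TATA box letters TATAAA, found in 13.6% of all windows and 4 of the 75, or the full cyclic AMP response element letters TGACGTCA, found in 1.79% of all windows and 0 of the 75.

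VMH-like neurons of the ARC hashtag had the highest Kcnq3 of any cluster, 983 CPM (924 to 1044), against 283 CPM in the other ARC neurons (3.47-fold, 3.24 to 3.70). Of 39 members, 7 were higher (17.9%) and 5 lower (12.8%), against 4.99% and 11.2% of all 8495 genes. Kcnb2 was also at its highest, 1619 against 889 CPM (1.82-fold). Kcnmb4 (53.1 against 17.1 CPM, 3.10-fold), Kcnh5 (2.37-fold), Kcnh7 (503 against 236 CPM), Kcnn2 (1.68-fold) and Kcnt1 (1.61-fold) were the others that were higher. Kcnh8 was at 48.5 against 141 CPM and Kcnt2 at 52.2 against 115 CPM. The K2P genes Kcnk13, Kcnk2 and Kcnk12 were lower by 1.51-fold to 1.68-fold, and the interval of Kcnk12 reached 1. Kcna1 stood at 30.8 CPM in this cluster and at 7.47 CPM or less in the other ARC neuron clusters, but had too few UMIs to be called.

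Dopaminergic-like neurons, which include cells that restrain prolactin release, had the largest ratio among the 43 members that could be called for Kcnt2, a sodium-activated channel also called SLICK. It stood at 439 against 81.3 CPM (5.41-fold, 4.94 to 5.92) and was high in both of their clusters. The level was 535 CPM in the 182 nuclei of cluster 12, where Slc6a3, the dopamine transporter gene, passed as a marker. In the 135 nuclei of cluster 13 it was 311 CPM, and neither Slc6a3 nor Ddc, another gene of the dopaminergic list, passed there. Of the 43 members, 6 were higher (14.0%) and 12 lower (27.9%), against 3.82% and 8.29% of all 9957 genes. Kcnj16, a Kir gene with 35 UMIs in ARC nuclei, stood at 22.4 CPM in cluster 12 (13.9 to 34.3) and at 1.58 CPM or less in the other ARC neuron clusters, but had too few UMIs to be called. Kcnip4 was at 7628 against 3834 CPM, but at 10454 CPM in cluster 12 and 3831 CPM in cluster 13. Kcnn2, Kcnk9, Kcnk13 and Kcnh4 were higher by 1.55-fold to 1.68-fold, and Kcnh4 had a log2 ratio of -0.30 when nuclei were thinned to 1000 UMIs. Kcnk13 too was uneven, at 31.0 CPM in cluster 12 and 106 CPM in cluster 13. The M-channel genes Kcnq3 (113 against 341 CPM) and Kcnq5 (112 against 299 CPM) and the ELK gene Kcnh8 (39.2 against 145 CPM) were lower. Kcnab1, Kcnip1, Kcnh7, Kcnmb2, Kcnj6, Kcnb2, Kcnj9, Kcnmb4 and Kcnh5 were lower by 1.53-fold to 2.42-fold, with the interval of Kcnmb4 reaching 1.

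**Figure D4:**
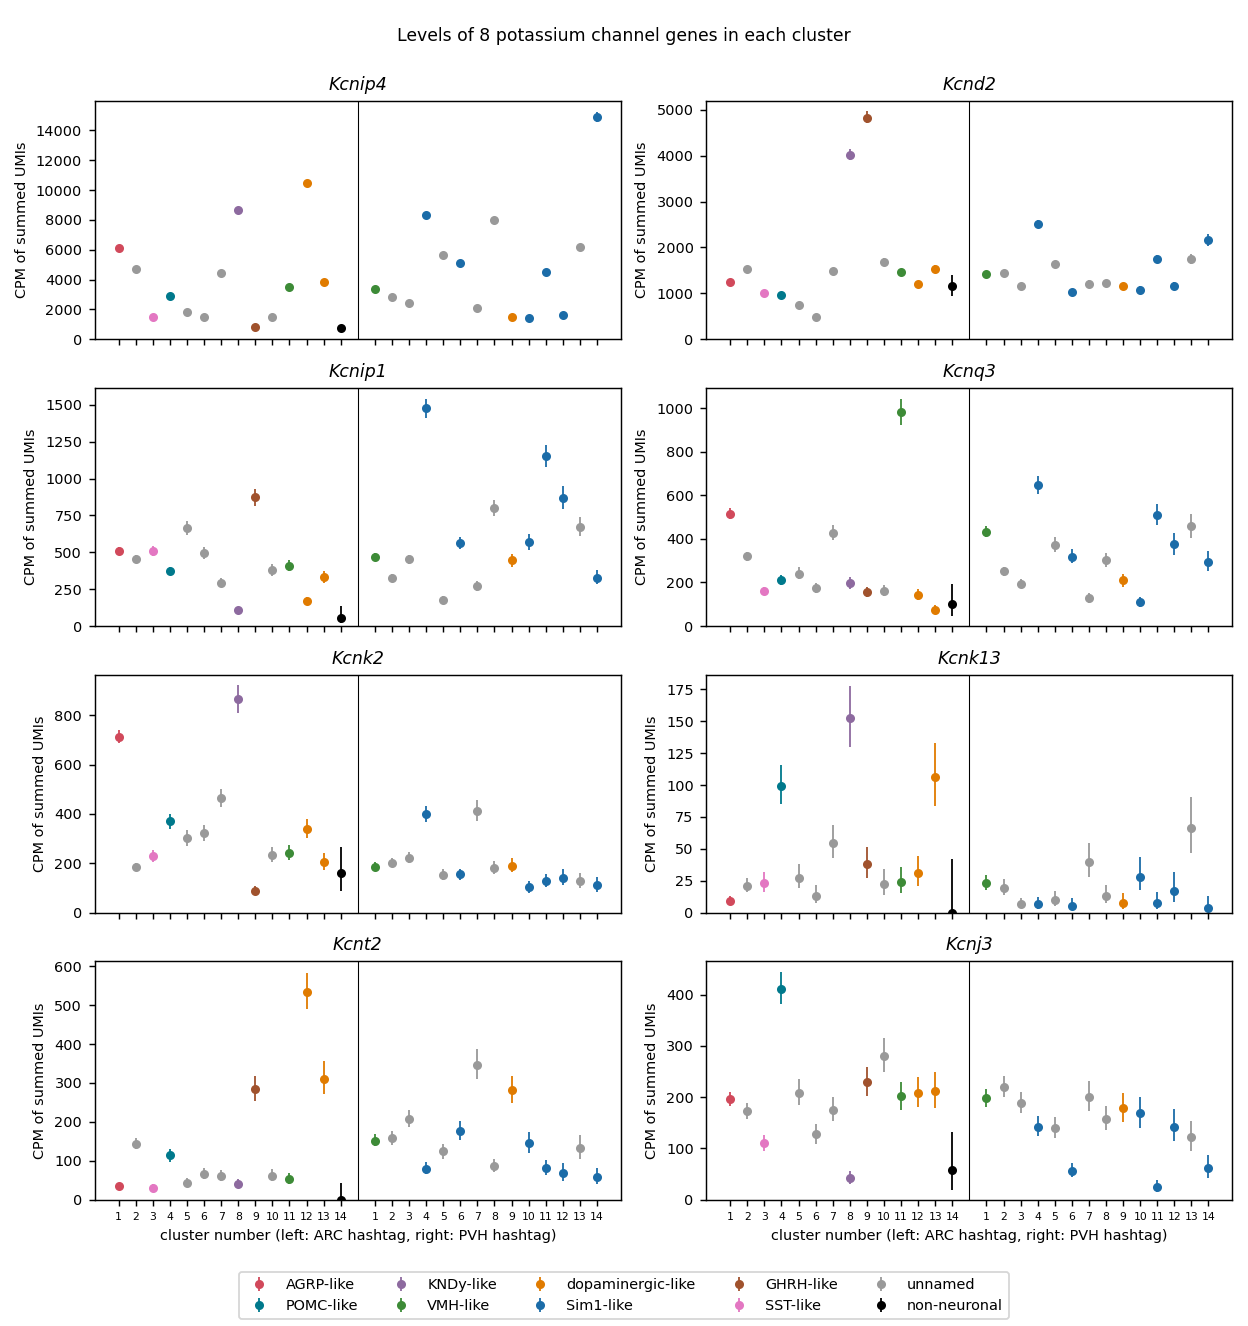
Levels of 8 potassium channel genes in each of the 14 ARC clusters (left of each panel) and 14 PVH clusters (right), as CPM of summed UMIs on linear axes from 0, with 95% counting intervals. Each point is 1 cluster coloured by its name. Among ARC clusters, Kcnd2 peaks in the GHRH-like and KNDy-like clusters, Kcnq3 in the VMH-like cluster, Kcnt2 in the dopaminergic-like clusters and Kcnj3 in the POMC-like cluster.

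The A-type channel genes and their KChIP subunits were also compared over single clusters, a choice made after the cluster levels had been seen. The GHRH-like cluster took its name from the markers Ghrh, Gal and Chat, but Chat headed its leading genes and Ghrh was not among them. Whether its nuclei are the neurons that stimulate growth hormone release was not tested. This cluster had the highest Kcnd2 of all ARC clusters (4830 CPM, 4700 to 4963). It also had the highest Kcnd3 (475 CPM), the highest Kcnip1 (872 CPM) and the lowest Kcnip4 among ARC neuron clusters (849 CPM). The KNDy-like cluster, which followed it in Kcnd2, had the lowest Kcnip1 (110 CPM) and the second highest Kcnip4 (8697 CPM). In the 30 non-neuronal nuclei, which had a median of 2557 UMIs, Kcnip4 was at 774 CPM (601 to 981), which takes in the 849 CPM of the GHRH-like cluster, and Kcnd2 was at 1150 CPM (937 to 1397), above the 481 CPM of the lowest ARC neuron cluster. Kcnt2 and Kcnk13 had no UMI in these nuclei, and a limit of 3 counts there is 34.2 CPM. Over PVH clusters Kcnip4 ran from 1413 to 14912 CPM and Kcnip1 from 177 to 1476 CPM.

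Sim1-like PVH neurons, the group that includes the oxytocin and vasopressin cells, had more Kcnmb4, Kcnh1 and Kcnip1 RNA than the other PVH neurons. Of 55 members, 6 were higher (10.9%) and 12 lower (21.8%), against 4.79% and 8.62% of all 13271 genes. Kcnmb4, which tunes BK channels, stood at 56.1 against 19.6 CPM (2.86-fold, 2.40 to 3.41), Kcnh1 at 287 against 107 CPM (2.69-fold, 2.49 to 2.90), Kcnip1 at 907 against 431 CPM, Kcnd3 at 285 against 144 CPM and Kcnip4 at 6007 against 3742 CPM. Kcnj12 was 2.62-fold higher, but its log2 ratio was -0.04 with a mitochondrial limit of 5%. Kcng1, a silent Kv subunit, had the lowest ratio, 0.067 with an interval of 0.0080 to 0.25, from 2 UMIs in Sim1-like nuclei and 63 in the others. Among well counted genes, Kcnq5 (175 against 444 CPM, ratio 0.39), Kcnh7 (181 against 380 CPM), Kcnj3 (100 against 185 CPM) and Kcnn2 (83.9 against 154 CPM) were lower. Kcnk12, Kcnab1, Kcnip3, Kcnk13, Kcnh5, Kcnip2 and Kcnt2 were lower by 1.65-fold to 2.04-fold. The other PVH neurons included cluster 8 (185 nuclei), which passed the Sim1 markers but stayed unnamed because its leading genes held the VMH marker Bdnf and no Sim1-list marker. With cluster 8 counted as Sim1-like, the 18 members called without it all kept their direction.

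The 6 Sim1-like clusters did not share 1 channel profile. In cluster 14, where Avp, the vasopressin gene, passed as a marker, Kcnip4 reached 14912 CPM and Kcnh1 706 CPM, both the highest of the 14 PVH clusters, and Kcnmb2 reached 199 CPM. Kcnmb4 was at 130 CPM there and at 127 CPM in cluster 11, where Oxt passed, and at 47.4 CPM or less in each of the other 12. Cluster 11 had the lowest Kcnq5 (60.8 CPM), Kcnj3 (24.8 CPM) and Kcnn3 (24.8 CPM) of the PVH clusters and the highest Kcnma1 (691 CPM). Kcnip1 was highest in cluster 4, where Crh, the gene of corticotropin-releasing hormone, passed, at 1476 CPM, and Kcnc2 in cluster 10 at 1108 CPM. Cluster 10, also Sim1-like, had the lowest Kcnip4 of the PVH clusters (1413 CPM). Kcnh7 was at 64.6 CPM in cluster 4 and highest, at 728 CPM, in an unnamed cluster led by Tcf7l2.

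VMH-like neurons of the PVH hashtag had 2 of 50 members higher and 3 lower than the other PVH neurons, against 1.8% and 3.59% of all 11338 genes. Kcnq5 stood at 770 against 282 CPM (2.73-fold, 2.59 to 2.88) and was the highest of the PVH clusters. Kcna4, an A-type Kv1 channel, was 1.56-fold higher, and Kcnmb4, Kcnh1 and Kcns3 were lower by 1.74-fold to 2.00-fold.

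The transmitter comparison asked whether channel RNA differed between GABA and glutamate neurons, and it was made in each hashtag. In ARC nuclei (2250 in Slc32a1-rich and 946 in Slc17a6-rich clusters), 7 of 54 members were higher in Slc32a1-rich clusters (13.0%) and 8 lower (14.8%), against 5.29% and 4.43% of all genes. Kcnk9 was at 21.9 against 4.51 CPM (4.85-fold, 3.16 to 7.79). Kcng1, Kcnab1, Kcnt2, Kcnip1, Kcna5 and Kcnc4 were higher by 1.5-fold to 2.61-fold, with the interval of Kcna5 reaching 1 and the log2 ratio of Kcnc4 at -0.0021 when nuclei were thinned. Kcnk13 was at 25.2 against 83.3 CPM (ratio 0.30, 0.26 to 0.35), and Kcna1, Kcnh7, Kcng2, Kcnmb4, Kcnq3 and Kcna4 were lower by 1.51-fold to 2.31-fold.

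In PVH nuclei (969 and 1665), 6 of 54 members were higher in Slc32a1-rich clusters (11.1%) and 11 lower (20.4%), against 4.03% and 5.39% of all genes. Kcnn2 (195 against 106 CPM), Kcnt2 (225 against 118 CPM), Kcnip3 (1.94-fold), Kcnk12 (2.16-fold), Kcns3 (2.26-fold) and Kcnu1 (1.51-fold, interval 0.90 to 2.49) were higher. Kcns3 had a log2 ratio of -0.11 when nuclei with many genes or UMIs were kept. Kcnmb4 (15.2 against 43.6 CPM), Kcnj12 (8.50 against 20.8 CPM), Kcnip1 (345 against 762 CPM) and Kcna4 (12.5 against 27.2 CPM) were the lowest in ratio. Kcnip4, Kcnq3, Kcnh1, Kcnh8, Kcnc2, Kcng3 and Kcnq5 were lower by 1.5-fold to 1.87-fold, with the interval of Kcng3 reaching 1. The log2 ratio was 0.05 for Kcnq5 and 0.16 for Kcng3 with a mitochondrial limit of 5%, and 0.07 for Kcng3 at a clustering resolution of 0.8. Kcnip1 thus lay on the Slc32a1-rich side in ARC nuclei (510 against 305 CPM) and on the Slc17a6-rich side in PVH nuclei, while Kcnt2 lay on the Slc32a1-rich side, and Kcnq3, Kcna4 and Kcnmb4 on the Slc17a6-rich side, in both.

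**Figure D5:**
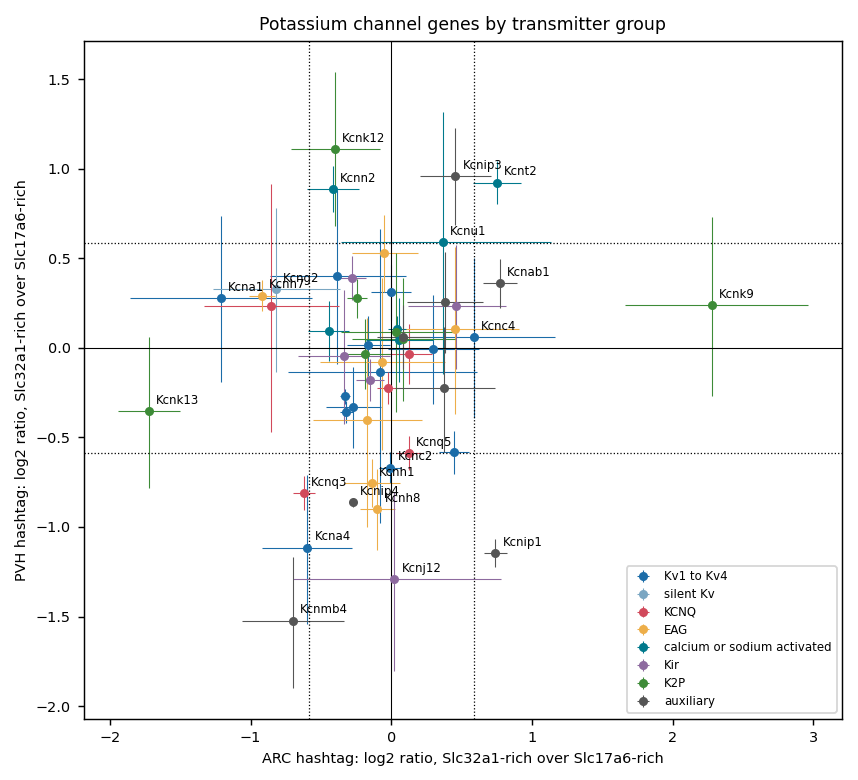
Log2 ratio of Slc32a1-rich over Slc17a6-rich clusters in ARC nuclei (horizontal) and PVH nuclei (vertical) for the 52 potassium channel genes with enough UMIs in both, with 95% counting intervals and dotted lines at 1.5-fold. Kcnip1 stands alone at the lower right, past 1.5-fold in opposite directions, and Kcnk9 and Kcnk13 are past 1.5-fold on the horizontal axis and within it on the vertical axis.

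Partner genes that are no members were read from a list of 19. Of the A-type channel partners, Dpp10 was higher in AGRP-like neurons (1317 against 815 CPM). Dpp10 was low in KNDy-like neurons (161 against 953 CPM, ratio 0.17) and in POMC-like neurons (358 against 962 CPM, ratio 0.37). Dpp6 was higher in Sim1-like neurons (2659 against 1256 CPM, 2.12-fold). Kctd16 and Kctd8, subunits of the GABA-B receptor complex that signals to GIRK channels, differed in opposite directions in AGRP-like and KNDy-like neurons. Kctd16 was at 1149 CPM in AGRP-like neurons against 343 CPM in the other ARC neurons (3.35-fold), while Kctd8 was at 372 CPM in KNDy-like neurons against 60.6 CPM (6.15-fold) and at 15.2 against 92.2 CPM in AGRP-like neurons. Both were lower in POMC-like, ARC VMH-like and Sim1-like neurons, and both were higher in the Slc32a1-rich clusters of PVH nuclei (415 against 210 CPM for Kctd16 and 128 against 64.1 CPM for Kctd8). Between the hashtags, Kctd16 (495 against 288 CPM) and Hcn4, a channel of the hyperpolarization-activated cation current (7.85 against 4.72 CPM) were higher in ARC nuclei and Abcc9 in PVH nuclei, and of the 16 partners that could be called the other 13 lay within 1.5-fold. The receptor genes Gabbr1 (107 and 104 CPM) and Gabbr2 (189 and 215 CPM) were among them.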

How the data were processed

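Nuclei, labelled as arcuate nucleus, were sorted for NeuN and loaded as 1 pooled 10x Genomics library with a hashtag library. The authors deposited raw counts of UMIs for 32285 genes and 2 hashtags in 11409 barcodes of the same matrix. The submitters' processing notes name Cell Ranger 5.0, Seurat 4 and mm10, and the matrix header names Cell Ranger 4.0.0. The filters of the study were applied (over 800 and under 5000 genes, a mitochondrial share of 1% or less and no more than 12000 counts), leaving 10170 nuclei. HTODemux with a positive quantile of 0.8 then called 944 doublets, which were left out with 2385 unassigned nuclei. Doublets within a hashtag remain. Depth per nucleus ran from 997 to 11970 UMIs.

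Clustering used R 4.3.3 and Seurat 5.3.0 (2000 variable genes without the members, 30 components, 20 neighbours, Leiden at a resolution of 0.55). A cluster took a class name when the leading marker of that class and no fewer than 3 markers in all exceeded the rest of the neurons by 1.5-fold, with 3 UMIs or more apiece. Clusters that passed a glial list or a second class, or whose 10 leading genes held more markers of another list, were left unnamed. Non-neuronal clusters had a median fold under 0.5 over the neuronal markers. Those thresholds were set after the data were seen, and the members, lists and comparisons were chosen with earlier results of these data known. Levels have exact Poisson intervals and ratios exact Clopper-Pearson intervals (95%, scipy 1.17.1). The ratio step was tested on simulated data. Text names up to 12 called members in each direction and a preset list of members and 19 partners. Some genes are not reported here by name, and counts include them. Gene positions came from GENCODE M21, where all 76 members were found, and promoter windows from RefSeq. Alternatives changed filters, hashtag quantile, clustering, naming, depth and call rules.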

Additional observations from a re-analysis of the deposited data

Results flagged for a closer look

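Kcnip1, the KChIP1 subunit of Kv4 channels, differed between Slc32a1-rich and Slc17a6-rich clusters in opposite directions in the hashtag groups. The log2 ratio was 0.74 in ARC nuclei, where Slc32a1-rich clusters were higher, and -1.14 in PVH nuclei, where they were lower, both past 1.5-fold. The difference between these ratios was not tested, since each hashtag is 1 pooled sample. In PVH nuclei the 6 Sim1-like clusters, which are Slc17a6-rich, ranged from 328 to 1476 CPM of Kcnip1.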

How the results depend on the processing

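Of 2134 alternative values for the 152 called ratios of the 9 main comparisons, 1826 lay within the counting interval of the reported value, 292 lay outside it with the same sign, and 16 changed sign. The sign changes were, as log2 ratios, within VMH-like clusters of both hashtags for ARC over PVH: Kcna1 1.19, Kcnmb4 1.464, Kcnh4 -0.24, Kcns3 1.149, Kcns2 1.275 and Kcnh8 -0.3011, and within Slc17a6-rich clusters Kcns2 0.1343. With nuclei thinned to 1000 UMIs (1 nucleus was left out as shallower), Kcnab2 was 0.1063 in POMC-like, Kcnh4 -0.2965 in dopaminergic-like and Kcnc4 -0.002085 in Slc32a1-rich ARC nuclei. Kcnj9 was 0.07535 in KNDy-like nuclei at a quantile of 0.99. In the PVH transmitter comparison Kcnq5 was 0.053 and Kcng3 0.1638 with a mitochondrial limit of 5%, Kcns3 -0.1085 without upper limits, and Kcng3 0.0653 at resolution 0.8. Kcnj12 was -0.03914 in Sim1-like nuclei with the 5% limit. The cause of each was not tested. A quantile of 0.99 kept 1229 ARC and 407 PVH nuclei.

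The number of called members moved by over 1.5 times as follows. With a 2-fold call it was 8 in place of 16 between hashtags, 10 of 17 for AGRP-like, 7 of 20 for POMC-like, 6 of 12 for VMH-like, 5 of 18 for dopaminergic-like and 8 of 18 for Sim1-like nuclei, and 4 of 15 and 6 of 17 for the ARC and PVH transmitter comparisons. At a quantile of 0.99, where fewer members could be called, it was 10 between hashtags and 13 for POMC-like nuclei. With at least 50 UMIs expected it was 13 for POMC-like, 7 for VMH-like and 12 of 19 for KNDy-like nuclei. Fewer members could be called there as well, 31, 26 and 26 in place of 43, 39 and 38. Within VMH-like clusters of both hashtags it was 7, where 38 members could be called in place of 68. The alternatives within a kind of neuron, without clusters that passed a glial list and with PVH cluster 8 as Sim1-like were chosen after the data were seen. No value could be had for VMH-like nuclei at resolution 0.3, for AGRP-like nuclei with 2-fold markers, or for the PVH transmitter groups at a quantile of 0.99. No paired analysis was possible because there is 1 pooled library and no test.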

Other observations

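Kcnq1, the heart and ear K-channel gene of the Kcnq family, was seen in 7992 columns and had the narrowest range over ARC neuron clusters among the 31 members followed there, from 287 to 372 CPM over ARC and 266 to 394 CPM over PVH neuron clusters. Its antisense transcript Kcnq1ot1, which lies within the gene on the other strand (chr7:143203458-143296549, minus strand, GRCm38), was seen in 8796 columns, at 479 CPM in ARC and 435 CPM in PVH nuclei. The sources used here do not say whether the counting used strand.

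Kcnj10, a Kir4.1 gene of glia, had 7 UMIs in the 30 non-neuronal ARC nuclei (79.7 CPM, 95% interval 32.0 to 164) and stood at 0.72 CPM over all ARC nuclei. In the same nuclei Kcnip3 was at 159 CPM (87.1 to 267), against a median of 38.8 CPM over the ARC neuron clusters.

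Kcnj5, a GIRK subunit, was at 32.2 CPM in the unnamed PVH cluster led by Tcf7l2 and at 7.24 CPM or less in each of the other 13 PVH clusters.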
